A study of Mus musculus with 4 samples.

Results

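A set of 50 genes of DNA replication licensing and of the replication fork was measured in cultured mouse cells labelled as female germline stem cells (FGSCs) with and without knockdown of *Nat10*. The genes were taken by name as known replication factors and not by a threshold on their values, but with earlier results of these data known. All 50 were among the 53465 genes of the deposited expression table and among the 20116 genes that were tested. Of the 50 genes, 19 (38%) were higher in shNAT10 libraries and 0 were lower, against 8.41% of all genes tested that were higher and 7.83% that were lower. The rises were largest for enzymes of nucleotide supply (*Tk1*, 1.88-fold and *Rrm1*, 1.80-fold) and extended to 4 of the 6 subunits of the MCM helicase.

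Long RNA-seq was performed on cells in which *Nat10* was knocked down by shRNA (shNAT10) and on cells with a control shRNA (shNC), with 2 libraries per group. NAT10 is the acetyltransferase that writes N4-acetylcytidine (ac4C) on RNA. The shRNAs were delivered by lentivirus and infected cells were selected by drug, and the labels give the cells as an FGSC line from ovary, without an age or passage. The study gives the libraries as biological replicates, but nothing names separate animals or derivations, so the p-values measure the spread between these cultures only.

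Before S phase, the origin recognition complex (ORC) marks replication origins, and CDC6 and CDT1 load onto them the ring-shaped MCM helicase, a step called licensing that geminin blocks by binding CDT1. At the onset of S phase, CDC45 and the GINS complex join MCM to form the active helicase. Polymerase alpha-primase then lays down primers, the sliding clamp PCNA is loaded by replication factor C (RFC), and polymerases epsilon and delta extend the strands. Many of these genes are transcribed in late G1 and S phase under E2F transcription factors. In bulk RNA, the share of cells in S phase and the amount of these RNAs per cell cannot be told apart.

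Expression was analysed as FPKM, that is fragments per kilobase of exon, on the scale log2(FPKM + 0.1). The deposited values were scaled by a divisor other than each library's fragment total, and their median-ratio factors were equal in the 4 libraries. A gene was called when its fold change exceeded 1.2 and its unadjusted limma p was at most 0.05. *Nat10* fell from 7.79 and 5.42 FPKM under shNC to 2.95 and 3.04 FPKM under shNAT10, with a log2 fold change of -1.09 ± 0.21 (SE; limma adjusted p = 0.123), and was called. The libraries held 8.09, 8.39, 8.44 and 10.2 M fragments on genes outside rRNA-related loci, which took 45.7% and 35.6% of fragments in shNC against 23.7% and 25.6% in shNAT10. These loci are genes typed as rRNA or mitochondrial rRNA and a few others, among them *Gm26917* and *Gm42418*. The study reports both of these lncRNAs as lower in shNAT10. Germline markers were nearly absent from all libraries: of 12 genes, 5 (*Dazl*, *Dppa3*, *Mael*, *Pou5f1* and *Tfap2c*) were listed at 0 throughout, *Ddx4* was seen in 2 fragments, and *Ifitm3* alone averaged at least 1 FPKM. Their summed level was 10.03 and 22.8 FPKM under shNC, 28.0 and 34.5 FPKM under shNAT10, of which *Ifitm3* made 9.29, 22.2, 27.1 and 33.6 FPKM, and none (0 of 12) was called. Pan-leukocyte markers were all expressed, with summed levels of 448 and 497 FPKM under shNC, 367 and 388 FPKM under shNAT10. *Cd53*, *Laptm5* and *Lcp1* of the 6 were lower in shNAT10, against 7.83% of all genes tested. Mast cell markers summed to between 313 and 323 FPKM in the 4 libraries. *Cpa3* alone made 245 and 262 FPKM of this under shNC, 272 and 267 FPKM under shNAT10. Of the 9, 4 averaged at least 1 FPKM, and *Fcer1a* and *Tpsb2* were at 0. *Ms4a2* was higher and *Kit* and *Gata2* were lower in shNAT10, where 8.41% of all genes tested were called higher and 7.83% lower. Fibroblast markers summed to 54.3 and 47.4 FPKM under shNC, 65.2 and 55.6 FPKM under shNAT10. *Dcn*, which was not called, made 41.1 and 36.2 FPKM of this under shNC, 45.9 and 36.8 FPKM under shNAT10. Of the 8, 3 (*Col3a1*, *Pdgfra* and *Thy1*) were higher, against 8.41% of all genes tested, and *Lum* was at 0. Granulosa cell markers summed to between 2.45 and 3.81 FPKM, with *Foxl2* and *Fshr* at 0. For its FGSCs the study reports *Ddx4*, *Oct4*, *Blimp1* and *Fragilis* by RT-PCR, and DDX4 and OCT4 protein by immunofluorescence. The marker levels of these libraries go against the label of germline stem cells, and the identity of the cells is in doubt. The part of these differences in the results on replication genes was not tested.

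Across all 20116 genes tested, 8.41% were called higher and 7.83% lower, and among protein-coding genes with a mean of at least 1 FPKM, which 49 of the 50 replication genes reached, 11.1% were called higher. The 19 replication genes called higher (38%) therefore exceeded each of these shares. Log2 fold changes were positive for 45 of the 50 genes and negative for 5, with a median of 0.36 against 0.01 for all genes tested. Both shNAT10 libraries lay above both shNC libraries for 38 genes, where 23.9% of all genes did so. Both lay below for 4 genes (*Orc3*, *Gmnn*, *Rfc2* and *Rpa3*), against 24.1% of all genes. The groups overlapped for the other 8, *Orc1*, *Orc5*, *Orc6*, *Ticrr*, *Pole*, *Pold2*, *Pold3* and *Dut*.

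These calls rest on unadjusted p-values. With p-values adjusted over the whole table, 0 of the 50 reached an adjusted p under 0.05 by limma on FPKM, 19 had an unadjusted p under 0.05, and the lowest adjusted p was 0.0584. With limma-voom on fragments recovered from the FPKM, 15 genes were higher at an adjusted p under 0.05 and 0 lower, where 4.23% of the genes tested were higher. Those 15 were 13 of the 19 called genes together with *Pola1* and *Chaf1a*. The 19 genes stayed above 0 with any single library left out, but *Rrm1*, *Tyms* and *Tk1* were the only ones that were called in all 4 of these fits.

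**Figure D1:**
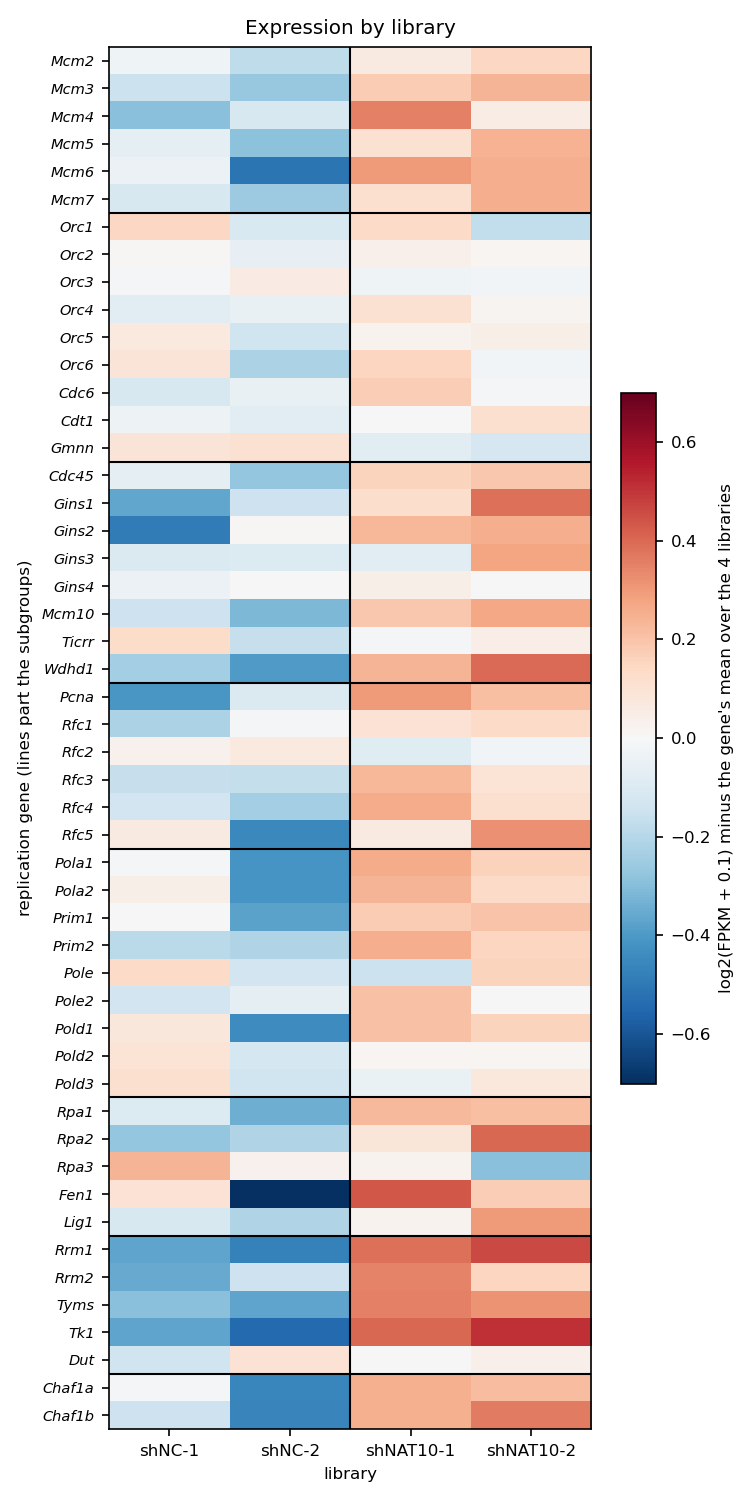
Heat map of the 50 replication genes (rows, in 8 groups by role) in the 4 libraries (columns). Colour gives log2(FPKM + 0.1) minus the gene's mean over the libraries. Most rows are blue in shNC and red in shNAT10, the ORC rows are pale, and shNC-2 is the lower of the control libraries for 34 of the 50 genes.

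The control libraries were not alike for these genes. Of the 50 genes, 34 (68%) were lower in shNC-2 than in shNC-1, with a median difference of -0.13 on the log2 scale, while 49.5% of all genes tested were lower. The shNAT10 libraries differed by a median of 0.01. Without shNC-2 the median log2 fold change of the set was 0.23 and 14 genes were called, without shNC-1 it was 0.37 with 22 called, and without shNAT10-1 or shNAT10-2 it was 0.34 or 0.31 with 6 genes called each time.

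MCM2 to MCM7 form the hexameric ring that unwinds DNA. Gene positions are those of GENCODE M21 on GRCm38. All 6 subunit genes had higher FPKM in both shNAT10 libraries than in either shNC library, where 23.9% of all genes tested did so. Of the 6, 4 were called, against 8.41% of all genes called higher. The median log2 fold change of the 6 was 0.39. The largest rise was that of *Mcm6* (chr1:128331590-128359664), from 28.0 and 20.3 FPKM in shNC to 35.5 and 34.5 FPKM in shNAT10 (0.55 ± 0.17 with its standard error; limma adjusted p = 0.241), and it was 0.32 without shNC-2. *Mcm3* (chr1:20802968-20820312) rose from 32.1 and 29.7 FPKM in shNC to 40.4 and 42.1 FPKM in shNAT10 (0.42 ± 0.09; limma adjusted p = 0.142), with control libraries close to each other. *Mcm7* (chr5:138164583-138172422) rose from 27.0 and 24.4 FPKM in shNC to 31.5 and 34.9 FPKM in shNAT10 (0.37 ± 0.10; limma adjusted p = 0.215).

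*Mcm5* (chr8:75109569-75128439) rose from 32.0 and 27.5 FPKM in shNC to 36.2 and 39.8 FPKM in shNAT10 (0.35 ± 0.11; limma adjusted p = 0.249). *Mcm2* had the smallest difference of the ring, 24.3 and 21.9 FPKM under shNC, 25.9 and 27.4 FPKM under shNAT10 (0.21 ± 0.10), or 0.13 without shNC-2, and did not pass the test. *Mcm4* did not pass it either, with 0.40 and unequal shNAT10 libraries (0.25 without shNAT10-1). Per length, *Mcm4* was the scarcest subunit at a mean of 5.84 FPKM, whereas the other subunits averaged 24.9 FPKM (*Mcm2*) to 36.1 FPKM (*Mcm3*).

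The 300-base promoters of RefSeq (build GRCm38.p6, from 250 bases before to 50 after each start) were searched for the E2F motif in 4 forms (TTTGGCGC, TTTCGCGC, TTTCCCGC and TTTGCCGC) and for CCAAT, the letters read by NF-Y, on both strands. Matches of each motif were counted separately, also where they overlap. The windows of 3 of the 4 called MCM genes are shown because they hold E2F letters and the genes rose together. *Mcm7*, the other called MCM gene, also holds E2F letters and is not shown. Each is 100 bases, written in the direction of transcription, with E2F and CCAAT letters, or their reverse complements, in capitals.

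*Mcm3* (chr1:20820283-20820382, minus strand): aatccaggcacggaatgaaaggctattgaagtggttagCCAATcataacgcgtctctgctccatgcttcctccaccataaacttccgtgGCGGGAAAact

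*Mcm5* (chr8:75109310-75109409, plus strand): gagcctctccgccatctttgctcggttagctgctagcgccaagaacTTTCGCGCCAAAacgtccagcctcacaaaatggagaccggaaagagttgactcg

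*Mcm6* (chr1:128359762-128359861, minus strand): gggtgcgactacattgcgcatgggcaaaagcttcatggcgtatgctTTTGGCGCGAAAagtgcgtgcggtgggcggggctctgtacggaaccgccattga

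In *Mcm5* and *Mcm6* the capitals are 2 E2F matches on opposite strands that overlap, and in *Mcm3* they are a CCAAT box followed by an E2F match. Of the 5 MCM genes with a promoter in the table, 4 held an E2F match and all 5 held CCAAT.

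The genes that act before the helicase is loaded showed small differences. Of the 9 genes of origin recognition and loading, 0 were called in either direction, which for 9 genes is near the shares of 8.41% higher and 7.83% lower over all genes. Their log2 fold changes ran from -0.20 to 0.16 with a median of 0.07. None (0 of the 9) reached an adjusted p under 0.05 by limma-voom. *Cdc6*, the ATPase that brings MCM to ORC, had the highest value, with 3.14 and 3.29 FPKM under shNC, 3.85 and 3.38 FPKM under shNAT10 (0.16 ± 0.14; limma adjusted p = 0.602), or 0.07 without shNAT10-1. *Gmnn*, which encodes geminin, the inhibitor of CDT1, had the lowest, with 16.2 and 16.3 FPKM under shNC, 14.4 and 14.0 FPKM under shNAT10 (-0.20 ± 0.09; limma adjusted p = 0.359). Both shNAT10 libraries were below both controls for *Gmnn*, but the difference stayed short of a 1.2-fold change.

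Among the ORC subunits the values were -0.04 for *Orc1*, 0.05 for *Orc2*, -0.05 for *Orc3*, 0.13 for *Orc4*, 0.07 for *Orc5* and 0.13 for *Orc6*. *Orc2*, the most abundant of the 50 genes per length at a mean of 53.6 FPKM, held 54.0, 51.4, 55.0 and 54.2 FPKM in the order shNC-1, shNC-2, then shNAT10-1, shNAT10-2. Of its exon bases, 29.8% are shared with *Nif3l1* on the opposite strand, so its level, its rank and the ORC ratios that use it are uncertain. *Orc1*, the subunit whose protein is turned over through the cell cycle, was the scarcest of the complex, with 2.03, 1.69, 2.02 and 1.61 FPKM in the same order and no separation of the groups. *Cdt1*, the loading factor that geminin binds, lay at 0.11. The signs of *Orc1*, *Orc3*, *Orc5* and *Orc6* depended on the scaling or on a single library.

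E2F letters were in 4 of the 8 promoters of this group that the table holds. The window of *Orc3*, whose level did not differ by the test, is shown for comparison with those of the MCM genes. Its capitals are an E2F match.

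*Orc3* (chr4:34614913-34615012, minus strand): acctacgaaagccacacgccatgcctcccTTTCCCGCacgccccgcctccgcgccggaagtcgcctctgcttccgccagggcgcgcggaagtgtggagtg

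Genes that turn the loaded ring into an active helicase were higher in 4 of 8 cases, against 8.41% of all genes tested. Their median log2 fold change was 0.40. *Wdhd1* (chr14:47240944-47276857), which encodes AND-1, the factor that ties polymerase alpha to the helicase, rose from 5.69 and 5.10 FPKM in shNC to 7.96 and 8.89 FPKM in shNAT10 (0.63 ± 0.13; limma adjusted p = 0.13). This was the clearest of the group, with an adjusted p of 0.00161 by limma-voom. *Mcm10*, needed for the ring to start unwinding, rose from 5.32 and 4.72 FPKM in shNC to 6.75 and 7.16 FPKM in shNAT10 (0.46 ± 0.12; limma adjusted p = 0.199). *Cdc45*, the helicase cofactor, rose from 15 and 13.1 FPKM in shNC to 17.6 and 18.0 FPKM in shNAT10 (0.34 ± 0.11; limma adjusted p = 0.245). All 3 genes had their 2 shNAT10 libraries near each other and above both controls.

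The 4 GINS subunits form a complex, and their values spread from 0.04 to 0.51. *Gins1* rose from 3.09 and 3.61 FPKM in shNC to 4.36 and 5.25 FPKM in shNAT10 (0.51 ± 0.16; limma adjusted p = 0.25), a call on few fragments, 55 to 122 per library, that was lost with any single library left out. *Gins4*, the most abundant subunit per length, was flat at 18.4, 18.9, 19.4 and 18.9 FPKM in the 4 libraries. *Gins2* (0.49, but 0.24 without shNC-1) and *Gins3* (0.20, but 0.02 without shNAT10-2) did not pass the test, and 67.3% of the exon bases of *Gins2* lie under *Gse1* on the opposite strand, so its level is uncertain. *Ticrr*, which encodes the activation factor treslin, was the scarcest gene of the set, with 1.06, 0.85, 0.955 and 0.997 FPKM and a log2 fold change of 0.03. The difference between *Gins1* and *Gins4* was itself not tested.

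The clamp and its loader gave 3 called genes of 6, against 8.41% of all genes called higher, with a median of 0.35. *Pcna*, the ring that holds polymerases on DNA, rose from 9.76 and 12.1 FPKM in shNC to 16.0 and 15 FPKM in shNAT10 (0.51 ± 0.14; limma adjusted p = 0.203). Both shNAT10 libraries were above both controls, while the controls themselves were 9.76 and 12.1 FPKM. Pseudogenes named after *Pcna* held at most 12 fragments in a library, against at least 275 for *Pcna*. Copies under other names were not searched for.

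RFC has a large and several small subunits. *Rfc4* rose from 27.6 and 25.6 FPKM in shNC to 36.2 and 32.7 FPKM in shNAT10 (0.37 ± 0.10; limma adjusted p = 0.198), with 12.7% of its exon bases shared with *Eif4a2* on the opposite strand. *Rfc3* rose from 6.84 and 6.81 FPKM in shNC to 9.00 and 8.18 FPKM in shNAT10 (0.33 ± 0.11; limma adjusted p = 0.257). The large subunit *Rfc1* (0.24, but 0.13 without shNC-1) and *Rfc5* (0.39, but 0.13 without shNC-2) did not pass the test. *Rfc2* went the other way without passing it, with 47.0 and 48.3 FPKM under shNC, 43.4 and 45.4 FPKM under shNAT10 (-0.10 ± 0.08; limma adjusted p = 0.579), and 15.1% of its exon bases are shared with *Lat2*, a gene of blood cells.

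**Figure D2:**
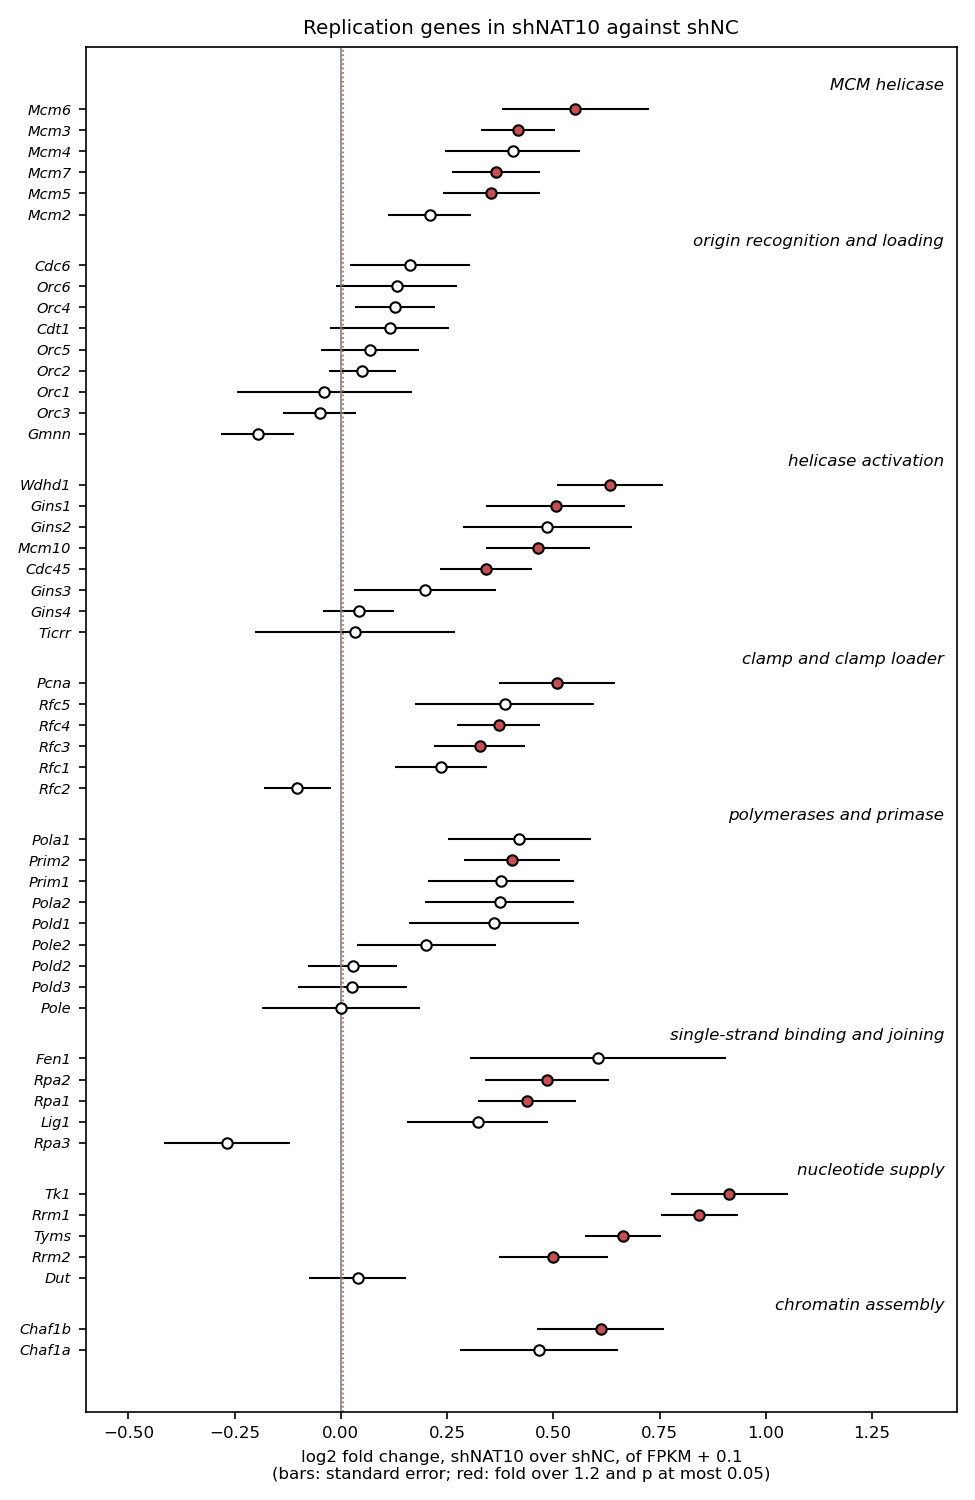
Log2 fold change of shNAT10 over shNC on the FPKM + 0.1 scale (horizontal axis) for each of the 50 genes, in groups by role. Points are limma estimates from 2 libraries per group, bars are standard errors, and filled red points are the 19 called genes. The dotted line is the median of all genes tested (0.01). *Tk1* and *Rrm1* lie farthest right and *Rpa3* farthest left.

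Of the 9 polymerase and primase genes, 1 was called, a share (11.1%) near the 8.41% of all genes called higher. For polymerase alpha-primase, which makes the RNA-DNA primers, all 4 subunits lay between 0.37 and 0.42, with a median of 0.39. Both shNAT10 libraries lay above both shNC libraries for each of them, where 23.9% of all genes did so. *Prim2*, the large primase subunit, was called, from 4.95 and 4.87 FPKM in shNC to 6.76 and 6.28 FPKM in shNAT10 (0.40 ± 0.11; limma adjusted p = 0.212). *Pola1*, the catalytic subunit, had 8.06 and 6.06 FPKM under shNC, 9.70 and 9.07 FPKM under shNAT10 (0.42 ± 0.17; limma adjusted p = 0.321) and reached an adjusted p of 0.0408 by limma-voom. *Pola2* (0.37) and the primase catalytic subunit *Prim1* (0.38) did not pass the main test. In *Pola1*, *Pola2* and *Prim1*, shNC-2 was well below shNC-1, and without it the values were 0.22, 0.15 and 0.19.

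Of the 5 subunits of polymerases delta and epsilon, 0 were called, which for 5 genes is also near that background, and their median was 0.03. The difference between these complexes was not tested. *Pold2*, the abundant delta subunit, was at 40.4, 34.7, 38.2 and 38.2 FPKM, and *Pold3* lay at 0.03. *Pole*, the catalytic subunit of the leading-strand polymerase epsilon, was at 3.44, 2.85, 2.81 and 3.50 FPKM, a log2 fold change of 0.00 ± 0.19 with both controls inside the range of the shNAT10 libraries. *Pold1*, the catalytic subunit of delta, had a value of 0.36 that rested on shNC-2 (0.10 without it), and *Pole2* lay at 0.20 (0.10 without shNAT10-1). Without shNC-2 the median of all 9 polymerase and primase genes was 0.15 in place of 0.36.

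The window of *Pola1* is shown because its E2F letters, in capitals, lie in a gene with an adjusted p under 0.05 by limma-voom that did not pass the main test.

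*Pola1* (chrX:93632240-93632339, minus strand): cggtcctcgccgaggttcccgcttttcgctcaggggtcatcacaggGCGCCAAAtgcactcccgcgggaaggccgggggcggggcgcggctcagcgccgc

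At the single strands and on the lagging strand, 2 of 5 genes were called, against 8.41% of all genes called higher. A subunit of replication protein A (RPA) had the opposite sign to its partners. *Rpa1*, the large DNA-binding subunit, rose from 17.1 and 14.4 FPKM in shNC to 21.4 and 21.2 FPKM in shNAT10 (0.44 ± 0.12; limma adjusted p = 0.2). *Rpa2*, the middle subunit, rose from 5.75 and 5.99 FPKM in shNC to 7.40 and 9.22 FPKM in shNAT10 (0.49 ± 0.15; limma adjusted p = 0.23). *Rpa3*, the small subunit of the same trimer, had 23.2 and 20.1 FPKM under shNC, 20.0 and 16.1 FPKM under shNAT10 (-0.27 ± 0.15; limma adjusted p = 0.455), lower in both shNAT10 libraries but not past the test. Its value without shNAT10-2 was -0.11.

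*Fen1*, the flap nuclease that trims Okazaki fragments, showed the widest spread of the set. It was at 4.99 and 2.82 FPKM under shNC, 6.32 and 5.25 FPKM under shNAT10, a log2 fold change of 0.60 ± 0.30 (limma adjusted p = 0.411) that ranged from 0.20 without shNC-2 to 1.01 without shNC-1. In addition, 78.8% of its exon bases are shared with the antisense gene *Gm10143*. *Lig1*, the ligase that seals the fragments, lay at 0.32, or 0.19 without shNAT10-2, from 2.59 and 2.41 FPKM in shNC to 2.86 and 3.47 FPKM in shNAT10. Without shNC-2 the median of these 5 genes was 0.27 in place of 0.44.

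The enzymes that supply deoxynucleotides gave the largest changes, with 4 of 5 called, against 8.41% of all genes called higher, and a median of 0.66. *Tk1* (chr11:117815526-117826092), thymidine kinase of the salvage route, rose from 3.0 and 2.64 FPKM in shNC to 5.20 and 5.60 FPKM in shNAT10 (0.91 ± 0.14; limma adjusted p = 0.0899). *Rrm1* (chr7:102441695-102469771), the large subunit of ribonucleotide reductase, rose from 15.6 and 14.6 FPKM in shNC to 26.5 and 27.9 FPKM in shNAT10 (0.84 ± 0.09; limma adjusted p = 0.0584), on 1907 to 4717 fragments per library. *Tyms* (chr5:30058202-30073617), thymidylate synthase of the de novo route, rose from 12.3 and 11.7 FPKM in shNC to 19.3 and 18.8 FPKM in shNAT10 (0.66 ± 0.09; limma adjusted p = 0.0807). For these 3 genes the gap between the groups was several times the gap within either group, and limma-voom gave adjusted p-values of 0.000292, 4.63e-07 and 0.000175.

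*Rrm2*, the small subunit of the reductase that is made in S phase, rose from 9.56 and 11.1 FPKM in shNC to 15.6 and 13.6 FPKM in shNAT10 (0.50 ± 0.13; limma adjusted p = 0.194). *Dut*, the dUTPase that keeps uracil out of DNA, was the exception of the group, with 18.4, 21.8, 20.4 and 20.8 FPKM and a log2 fold change of 0.04 ± 0.11. Its control libraries enclosed both shNAT10 libraries. None (0 of 5) of the promoters of this group held E2F letters in the 4 forms searched, and 2 of 5 held CCAAT. The window of *Rrm1* is shown as the gene of the group with the most fragments, and its capitals are a CCAAT match.

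*Rrm1* (chr7:102441625-102441724, plus strand): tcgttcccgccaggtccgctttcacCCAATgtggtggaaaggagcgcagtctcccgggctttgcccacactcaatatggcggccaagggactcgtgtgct

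Chromatin assembly factor 1 (CAF-1) places histones on new DNA behind the fork. *Chaf1b* rose from 6.20 and 4.95 FPKM in shNC to 8.19 and 8.86 FPKM in shNAT10 (0.61 ± 0.15; limma adjusted p = 0.181), and the median of both CAF-1 genes was 0.54, or 0.35 without shNC-2. *Chaf1a*, the large subunit, had 4.56 and 3.31 FPKM under shNC, 5.47 and 5.34 FPKM under shNAT10 (0.47 ± 0.19; limma adjusted p = 0.322) and did not pass the main test, but reached an adjusted p of 0.0412 by limma-voom. Its value was 0.24 without shNC-2. A share of 52.5% of its exon bases is shared with *Ubxn6* on the opposite strand.

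Ratios between genes were taken within each library, where the scaling between libraries cancels. A group of genes entered as the geometric mean of its FPKM. The pairs were not fixed before the values were seen. They restate the differences of single genes given above and are no separate support for them. The geometric mean of the 6 MCM genes over that of the 6 ORC genes was 1.61 and 1.59 in shNC and 1.95 and 2.10 in shNAT10. The geometric mean of *Rrm1*, *Rrm2*, *Tyms* and *Tk1* over that of the ORC genes was 0.658 and 0.701 in shNC and 1.07 and 1.13 in shNAT10. *Dut*, the uncalled gene of nucleotide supply, was left out, so the rise is larger than for that whole group. The geometric mean of the polymerase alpha-primase genes over that of polymerases delta and epsilon was 0.935 and 0.888 in shNC and 1.14 and 1.06 in shNAT10. These 3 ratios were higher in both shNAT10 libraries than in both controls.

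*Rrm2* over *Rrm2b*, the small reductase subunit that is made outside S phase and on DNA damage, was 1.92 and 2.32 in shNC and 4.04 and 3.62 in shNAT10. *Gmnn* over *Cdt1*, the inhibitor over its target, was 5.96 and 6.21 in shNC and 5.14 and 4.64 in shNAT10. *Rpa3* over *Rpa1* was 1.36 and 1.4 under shNC and 0.935 and 0.759 in shNAT10. *Rfc2* over *Rfc3* was 6.88 and 7.09 in shNC and 4.82 and 5.55 in shNAT10. The last 3 ratios were lower in both shNAT10 libraries than in both controls.

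*Mcm4* over *Mcm3* was 0.146, 0.180, 0.183 and 0.142 in the order given for *Orc2*, and *Orc2* over *Orc1* was 26.6, 30.3, 27.3 and 33.6, with overlap in both. *Rrm1* over *Rrm2* was 1.64 and 1.32 in shNC and 1.70 and 2.05 in shNAT10. With 2 libraries against 2, an exact two-sided permutation test of a ratio cannot give a p below 0.333, so the ratios are given without a test.

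**Figure D3:**
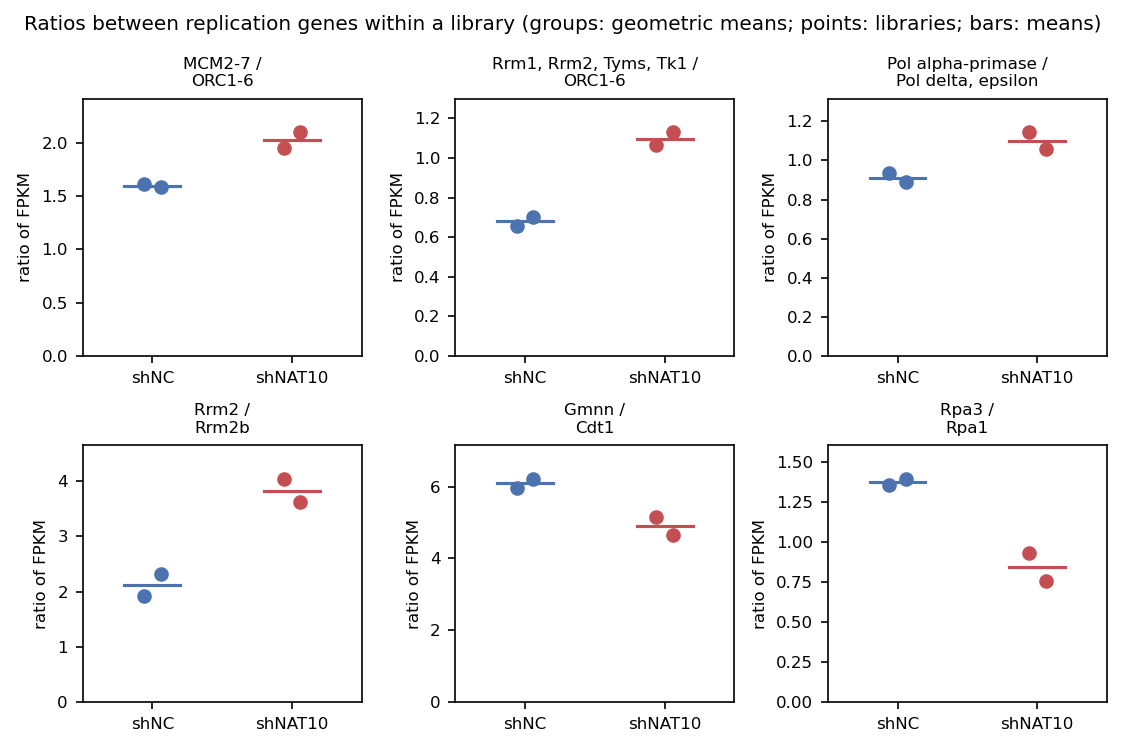
Ratios of FPKM within each library (vertical axes, from 0) for 6 pairs of gene groups, taken as geometric means, or single genes. Points are the 2 libraries of each group and bars are their means. MCM over ORC, *Rrm1*, *Rrm2*, *Tyms* and *Tk1* together over ORC, alpha-primase over delta and epsilon, and *Rrm2* over *Rrm2b* are higher in shNAT10. *Gmnn* over *Cdt1* and *Rpa3* over *Rpa1* are lower. The ratios that overlap between the groups, *Mcm4* over *Mcm3* and *Orc2* over *Orc1*, are not plotted.

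Beyond the 50 genes, a list of 54 further genes of replication, its regulation and its nucleotide supply was examined, all of which were tested. Of these, 22 (40.7%) were higher and 2 were lower in shNAT10, against 8.41% and 7.83% of all genes, and 44 had a positive and 10 a negative log2 fold change, with a median of 0.28. The largest change was that of *Dna2*, the nuclease and helicase of long flaps, from 1.85 and 1.59 FPKM in shNC to 4.19 and 4.22 FPKM in shNAT10 (1.24 ± 0.15; limma adjusted p = 0.0711). It had the same call with any single library left out. *Esco2*, which acetylates cohesin at the fork, rose from 1.58 and 1.23 FPKM in shNC to 3.28 and 2.32 FPKM in shNAT10 (0.94 ± 0.25), a call lost with any single library left out.

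The next largest were *Clspn* (0.69), which encodes the checkpoint mediator claspin, *Chtf18* (0.68), of an alternative clamp loader, *Cdc7* (0.66), the kinase that fires origins, *Ccne2* (0.63), cyclin E2, and *Tipin* (0.63), of the fork protection complex. The rest of the 10 largest were *Shmt1* (0.63), of thymidylate synthesis, *Uhrf1* (0.62), which directs maintenance methylation, and *Dctpp1* (0.60), a dNTP-cleaving enzyme. Without shNC-2 *Chtf18* was at 0.42 and *Shmt1* at 0.35, and without shNC-1 *Dctpp1* was at 0.38. Apart from *Dna2*, the genes of the 10 kept the call in at most 2 of the 4 fits with a library left out, and *Chtf18* held as few as 90 fragments in a library. *Cdc7* went from 3.24 and 2.98 FPKM in shNC to 5.37 and 4.58 FPKM in shNAT10 (0.66 ± 0.15; limma adjusted p = 0.152), and its partner *Dbf4* from 6.06 and 6.0 FPKM in shNC to 8.20 and 7.49 FPKM in shNAT10 (0.37 ± 0.11; limma adjusted p = 0.227). Both had all shNAT10 values above all shNC values.

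The 2 genes that fell were *Ten1* and *Rrm2b*. *Ten1*, of the CST complex that fills in telomere ends, fell from 2.47 and 2.78 FPKM in shNC to 1.84 and 1.89 FPKM in shNAT10 (-0.47 ± 0.16; limma adjusted p = 0.263). *Rrm2b* fell from 4.97 and 4.78 FPKM in shNC to 3.86 and 3.76 FPKM in shNAT10 (-0.35 ± 0.12; limma adjusted p = 0.267). Neither call was made when the libraries were scaled to the same fragment total outside rRNA-related loci.

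Across promoters, E2F letters were found in 15 of the 42 replication genes with a RefSeq promoter in the table (35.7%), against 2.6% of 27025 genes with a promoter and 5.08% of protein-coding genes with a mean of at least 1 FPKM. Within the set, 5 of 17 called genes (29.4%) and 10 of 25 other genes (40%) held them, so the share was not higher among the called genes. The further genes of the pathway held them in 10 of 43 cases (23.3%). CCAAT, a shorter and commoner string, was in 25 of the 42 (59.5%) against 41.1% of all promoters, with 12 of 17 called (70.6%) and 13 of 25 not called (52%). The search for CCAAT was added after the values had been seen, and no match says only that these letters are not in the window.

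**Figure D4:**
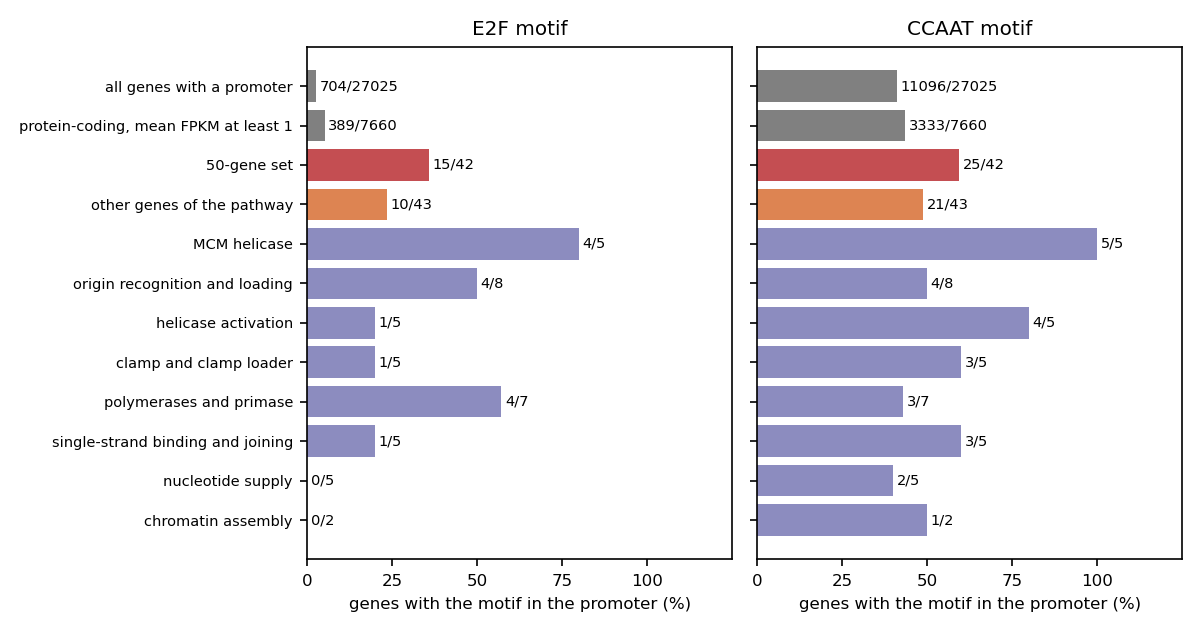
Share of genes (horizontal axis, percent) whose 300-base promoter holds the E2F motif (left) or CCAAT (right), with the counts beside each bar. The 50-gene set (15 of 42 and 25 of 42) is set beside all genes, expressed protein-coding genes, the further genes of the pathway and the 8 groups by role. E2F letters are most frequent for MCM genes (4 of 5) and absent for nucleotide supply (0 of 5).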

How the data were processed

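Long RNA-seq was analysed in 4 libraries labelled FGSC, 2 shNC and 2 shNAT10, grouped by their titles. The authors deposited FPKM for each gene, made after cutadapt, HISAT2 on mm10 and DESeq2, which the submitters' processing notes name without versions. The program and annotation for assigning reads to genes, and the use of strand, are not given in the sources used here. The methods describe rRNA depletion, the labels mRNA isolation. The table of the authors' own comparison was not used. No columns (0) of other samples were present.

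Genes with a mean of at least 0.1 FPKM over the 4 libraries were compared as log2(FPKM + 0.1), which understates changes of low genes, with limma 3.58.1 in R 4.3.3 (eBayes with trend, two-sided, Benjamini-Hochberg adjustment over all genes tested), a test that was checked on simulated data. The deposited FPKM had equal median-ratio factors in the 4 libraries, and no further scaling was applied in the main test. Whole fragments were recovered with GENCODE M21 exon lengths. For values below 50 fragments, 96.0% to 96.5% lay at most 0.02 from a whole number, and limma-voom on the fragments was an alternative. Totals were 11057933 to 14902426 fragments per library and single replication genes held 55 to 4717, so precision is limited by counting error and by 2 libraries per group. Other alternatives were pseudocounts, filters, scalings, limma without the trend, a replicate block and each library left out.

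The 50 genes, their groups and the further pathway list were chosen with earlier results of these data known. Values per library were given for called genes and for the highest and lowest gene of each group. Of the further list, the 10 called genes with the largest log2 fold changes by size were named. Other genes were named after their values were seen. The remaining steps used Python 3.11.15 (numpy 2.4.6, pandas 2.3.3, matplotlib 3.10.9).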

Additional observations from a re-analysis of the deposited data

How the results depend on the processing

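Calls were moderate in size and depended on the spread estimate. Each fit used the calling rule with unadjusted p, also limma-voom, where 15 replication genes were higher at an adjusted p under 0.05. Over all genes tested, 1691 of 20116 were called higher in the main test. The all-gene count was 1536 of 20116 without the trend and 2019 of 20077 by limma-voom. The replication genes called higher numbered 19, with 8 by limma without the trend, 28 by limma-voom and 6 to 22 with a library left out (6 without either shNAT10 library, where the lone sample is assumed to vary like the other groups). None (0) was called lower in any fit. The median log2 fold change of all 50 replication genes, called or not, was 0.41 with libraries scaled to the same fragment total outside rRNA-related loci and 0.23 to 0.37 with a library left out, the lowest without shNC-2. The further pathway genes called higher numbered 12 without the trend and 6 to 19 with a library left out. Those called lower numbered 1 at the same protein-coding FPKM total, without the trend and by limma-voom, 0 at the same fragment total, and 0 to 3 with a library left out. With a library left out, the counts were 1108 to 1734 for all genes higher and 899 to 1659 for all genes lower, and *Nat10* lay between -1.35 and -0.83, missing the threshold without either shNAT10 library.

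The origin and loading median was 0.13 at the same fragment total and -0.016 to 0.11 with a library left out. Left-out ranges were 0.31 to 0.44 for helicase activation, 0.27 to 0.46 for single-strand binding and joining, and nucleotide supply was 0.72 at the same fragment total. Single genes that changed sign were all uncalled. At the same fragment total *Orc1* was at 0.015 and *Orc3* at 0.00761, and under quantile normalization *Orc3* was at 0.00890, *Ticrr* at -0.00986 and *Pole* at -0.015. *Pole* was at -0.000533 at the same protein-coding total. With a library left out, the ranges were -0.19 to 0.11 for *Orc1*, -0.037 to 0.17 for *Orc5*, -0.025 to 0.29 for *Orc6*, -0.11 to 0.18 for *Ticrr*, -0.15 to 0.15 for *Pole*, -0.080 to 0.14 for *Pold2*, -0.10 to 0.15 for *Pold3* and -0.080 to 0.16 for *Dut*. The causes were not tested.

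With the replicate number as a block, 23 replication genes and 20 further genes were called higher, and 0 lower in both lists. Same-numbered libraries did not deviate together over all genes tested (correlation of deviations 0.00711), which does not settle whether the numbers pair cultures.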
